A study of Mus musculus with 3 samples.

Results

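The genes described here encode the variable (V), joining (J) and constant (C) segments of the 4 T cell receptor chains. They were taken from the gene list of the deposited matrices by symbol (Trav, Traj, Trac, Trbv, Trbj, Trbc, Trdv, Trdc, Trgv and Tcrg-), which gave 258 of 31054 features: 176 V, 74 J and 8 C genes. Their UMIs (unique molecules counted once) were read in mouse lung cells profiled by 10x 3′ single-cell RNA sequencing, in 3 libraries with 1 library per group. The groups were irradiated conditional knockout animals given a drug (the knockout library), irradiated wild-type animals and non-irradiated wild-type animals. The labels give neither the knocked-out gene, the drug, the strain nor the age, and neither the radiation dose, the time after it nor the number of animals per library. The effects of the knockout and of the drug therefore cannot be told apart, and the targeted gene could not be checked.

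A T cell builds its receptor by cutting and joining the DNA of V, J and, in β and δ chains, short D segments, and the joined V region is then spliced to a C segment. Most T cells carry an α chain paired with a β chain and read peptides on MHC molecules, with CD4 or CD8 as the co-receptor. γδ T cells carry a γ and a δ chain instead. They lie mostly in tissues such as lung and skin, and one lung subset makes IL-17. In the mouse the δ genes sit inside the α locus on chromosome 14, the β locus is on chromosome 6 and the γ locus on chromosome 13. A few T cell types use a nearly fixed receptor: invariant NKT cells join Trav11 to Traj18, MAIT cells join Trav1 to Traj33, and the IL-17 producing γδ cells of many tissues pair the Tcrg-V6 and Trdv4 chains.

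The genes whose use differed most between libraries, or that mark such a receptor, are shown by the last coding bases before the join, from GENCODE vM21 on GRCm38. In the first 3 V genes the capitals mark the conserved cysteine codon near the end of the V segment, where the CDR3 loop begins. Trav11 (chr14:53519800-53519859, + strand) belongs to the invariant NKT α chain, Trdv4 (chr14:54075456-54075515, + strand) is the δ V gene most often detected here, and Tcrg-V6 (chr13:19190870-19190929, + strand) is its partner in the fixed γδ receptor.
Trav11: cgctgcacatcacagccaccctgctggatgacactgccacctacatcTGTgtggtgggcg
Trdv4: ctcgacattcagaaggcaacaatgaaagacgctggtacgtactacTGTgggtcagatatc
Tcrg-V6: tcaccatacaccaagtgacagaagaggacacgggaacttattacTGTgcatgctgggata
Traj18, shown whole (chr14:54200777-54200842, + strand), is the J segment of the invariant NKT α chain, and its capitals mark the codons of the F-G-x-G motif that J segments share.
Traj18: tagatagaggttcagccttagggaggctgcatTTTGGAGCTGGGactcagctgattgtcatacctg
Trav14d-3-dv8 (chr14:53078986-53079045, + strand), Trav14n-3 (chr14:53370516-53370575, + strand) and Trav14-3 (chr14:53763635-53763694, + strand) are copies made by duplication of part of the α locus. They differ over these 60 bases at 4 positions, in capitals, and show how little separates the reads of one copy from those of another.
Trav14d-3-dv8: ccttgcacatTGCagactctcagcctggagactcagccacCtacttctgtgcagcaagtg
Trav14n-3: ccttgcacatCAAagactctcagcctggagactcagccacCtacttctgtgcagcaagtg
Trav14-3: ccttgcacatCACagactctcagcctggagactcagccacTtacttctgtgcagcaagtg

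Cells were barcodes with at least 250 genes, at most 15% mitochondrial UMIs and at least 1 UMI of the CD3 genes Cd3d, Cd3e or Cd3g, the invariant partners of every T cell receptor. There were 5718 such Cd3 cells of 11292 barcodes in the knockout library, 3007 of 7084 in the irradiated wild-type library and 2441 of 15485 in the non-irradiated library. Their median depth was 6694, 6439 and 6475 UMIs, and the libraries held 76667310, 45800421 and 85984536 UMIs in that order. Male-type cells, which have UMIs of Y-linked genes but none of Xist, made up 924 of the Cd3 cells (30.7%) in the irradiated wild-type library, against 14 in the knockout and 1 in the non-irradiated library, so that library mixes male-type and female-type cells. UMIs of other cell types were also unequal: at least 2 summed UMIs of 3 mesenchymal markers were seen in 2.78%, 2.19% and 14.2% of Cd3 cells of the knockout, irradiated wild-type and non-irradiated libraries, and of the myeloid markers in 9.97%, 3.56% and 33.2%. For the epithelial markers Epcam, Sftpc and Scgb1a1 these shares were the largest, at 74.9%, 40.4% and 98.9%. Cd3 cells with only 1 CD3 UMI were 10.8%, 11.1% and 23.8%. Between 3 and 7 Cd3 cell barcodes were shared by each pair of libraries. Because each group is 1 library, the spread between animals is unknown and no test was made. Values in brackets are 95% intervals that cover counting error alone, by the exact binomial method for shares and by the exact Poisson method for CPM, the UMIs of a gene scaled to the total UMIs of the cells named.

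C genes carried nearly all the signal in these libraries, which read the 3′ ends of transcripts. Of the 192366 receptor UMIs in Cd3 cells, C genes took 96.3%, 95.2% and 96.1% in the knockout, irradiated wild-type and non-irradiated libraries, and V genes took 3.66%, 4.75% and 3.92%. At least 1 C gene was seen in 96.8%, 98.3% and 86.8% of Cd3 cells, and at least 1 V gene in 36.2%, 38.6% and 30.3%. A UMI was found for 135 of the 258 genes. The 123 genes without one were 49 of 128 Trav, 48 of 60 Traj, all 14 Trbj, 11 of 35 Trbv and 1 of 6 Trdv. Of the Trav genes that lacked UMIs, the median gene had 0% of its 31-base windows unique among transcripts, against 39.5% in the Trav genes with UMIs, and all 11 such Trbv are annotated as pseudogenes. A V gene is therefore compared below with itself between libraries, and a share among V genes also carries how well each gene can be detected. The join itself (CDR3) is not in gene counts, so clones were not measured, and transcripts of a rearranged and an unrearranged segment cannot be told apart.

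Over all Cd3 cells, whatever their sex type, both irradiated libraries showed the δ and γ constant genes in more cells than the non-irradiated library. The α and β constant genes differed less. Trdc, the δ constant gene, was seen in 31.1% (29.9 to 32.4) of Cd3 cells in the knockout library and 30.7% (29.1 to 32.4) in the irradiated wild-type library, against 17.9% (16.4 to 19.4) in the non-irradiated library. Its level was 313.1, 362.6 and 231.1 CPM, and the 3 Poisson intervals did not overlap. After each cell was thinned to 1000 UMIs, which left out 35, 11 and 62 shallower cells, the Trdc shares were 15.7%, 16.9% and 9.88%. The 2 irradiated libraries overlapped in share and were ordered the other way by CPM, so no order between them is read. Tcrg-C1, the constant gene joined to Tcrg-V4, Tcrg-V5 and Tcrg-V6, stood at 31.2 (29.6 to 32.9) and 37.6 (35.1 to 40.1) CPM in the knockout and irradiated wild-type libraries, against 21.6 (19.5 to 23.8) CPM in the non-irradiated one. Tcrg-C2, the partner of Trgv2, had 11.9 (10.9 to 12.9), 7.97 (6.87 to 9.19) and 7.41 (6.21 to 8.78) CPM, so the knockout library was the highest. Tcrg-C4, the partner of Tcrg-V1, had 6.91 (6.17 to 7.71), 8.14 (7.03 to 9.37) and 5.03 (4.05 to 6.18) CPM. Tcrg-C3 had 4, 0 and 3 UMIs, at or near the level that a count of 0 allows (3 UMIs).

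Trac, the α constant gene, was seen in 76.2% (75.1 to 77.3) and 77.0% (75.5 to 78.5) of Cd3 cells in the knockout and irradiated wild-type libraries, against 68.5% (66.6 to 70.3) in the non-irradiated library, at 554.8, 545.5 and 451.4 CPM. Of the paired β constant genes, which encode nearly the same protein, Trbc2 had 833.1, 656.8 and 616.7 CPM and Trbc1 had 523.1, 416.0 and 435.8 CPM. The knockout library was thus the highest for both, with intervals apart from those of the other 2. About as many 31-base windows of Trbc1 (54.6%) as of Trbc2 (51.5%) are unique, and how the authors' counting shared the other reads is not stated in the labels.

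Taken by class, cells with Trac and neither Trdc nor a Tcrg-C UMI were 56.5%, 57.2% and 58.6% of Cd3 cells in the knockout, irradiated wild-type and non-irradiated libraries. Cells with Trdc or a Tcrg-C UMI and no Trac were 15.9%, 16.2% and 10.9%, and cells with both kinds were 19.7%, 19.9% and 9.91%. Cells with none of these were 7.96%, 6.78% and 20.6%, so the non-irradiated library held the largest share of Cd3 cells without a receptor C gene of the α, δ or γ chains. In these cells only 1 CD3 UMI was present in 54.3%, 46.6% and 75.4%, and at least 2 mesenchymal UMIs in 8.57%, 6.37% and 32.7%. NK markers went the other way, with at least 2 summed UMIs in 18.2%, 21.1% and 6.15% of them. With at least 2 CD3 UMIs the Trdc share in the non-irradiated library was 21.4%. Without the cells that carried markers of other types it was 32.5% in the knockout and 20.4% in the non-irradiated library. That filter left 3200, 2253 and 583 Cd3 cells in the knockout, irradiated wild-type and non-irradiated libraries. Sftpc and Scgb1a1 were not among its markers, so the cells left can still hold epithelial UMIs.

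**Figure D1:**
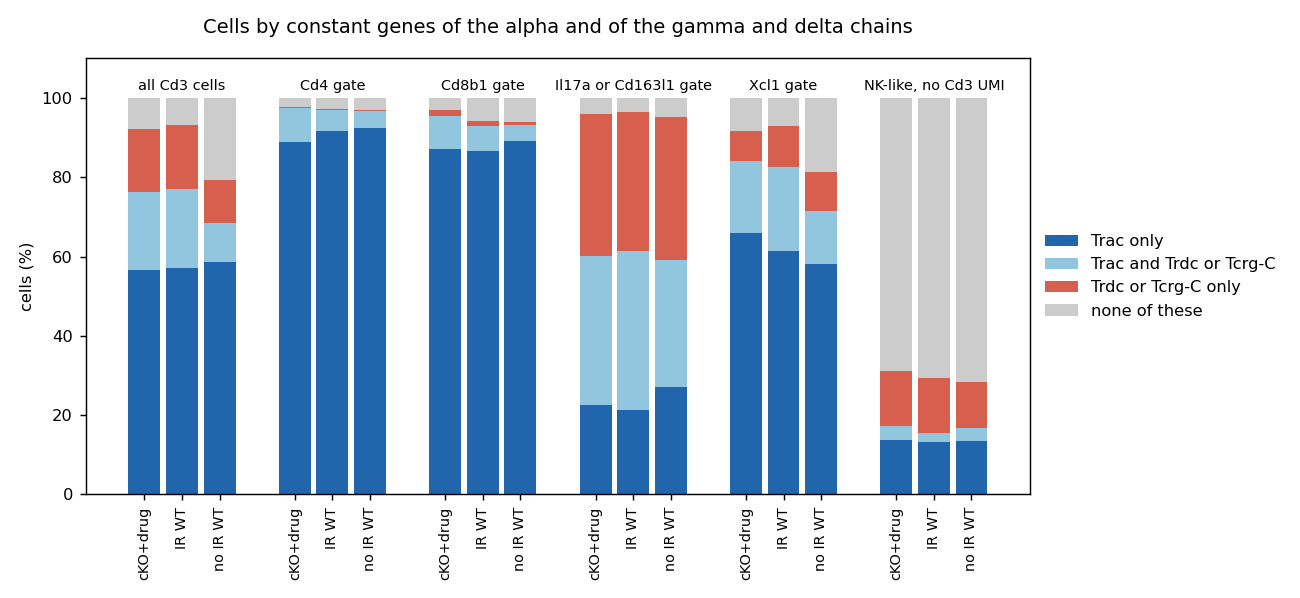
Share of cells (y axis, %) by constant genes detected, for each gate and library (cKO+drug, the irradiated conditional knockout with drug; IR WT, irradiated wild-type; no IR WT, non-irradiated wild-type). Among all Cd3 cells the grey part, cells with no α, δ or γ constant gene, was 7.96% and 6.78% in the irradiated libraries and 20.6% in the non-irradiated one; the Il17a or Cd163l1 gate is the one with mostly red and light blue cells.

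The sex mix moved with the δ and γ results. Among female-type cells alone, Trdc was seen in 32.1% (30.8 to 33.4) in the knockout, 24.6% (22.5 to 26.8) in the irradiated wild-type and 19.4% (17.7 to 21.2) in the non-irradiated library. In the male-type cells of the irradiated wild-type library it was 39.9% (36.8 to 43.2). Trac ran the other way in that library, with 81.1% (79.1 to 82.9) of female-type and 70.9% (67.8 to 73.8) of male-type cells. Male-type cells were 40.4% of that library's Il17a or Cd163l1 gate and 22.5% of its Xcl1 gate. In female-type cells of the irradiated and non-irradiated wild-type libraries, Tcrg-C2 was seen in 3.62% (2.76 to 4.64) and 4.12% (3.31 to 5.06). Tcrg-C4 was seen in 4.11% (3.2 to 5.19) and 3.16% (2.45 to 4.0), so both genes had overlapping intervals. Tcrg-C1 was seen in 12.1% (10.5 to 13.8) and 9.0% (7.81 to 10.3), with separate intervals. The knockout library had 6.82%, 4.7% and 13.8% for Tcrg-C2, Tcrg-C4 and Tcrg-C1. Animal, sex and any difference in handling cannot be told apart here.

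**Figure D2:**
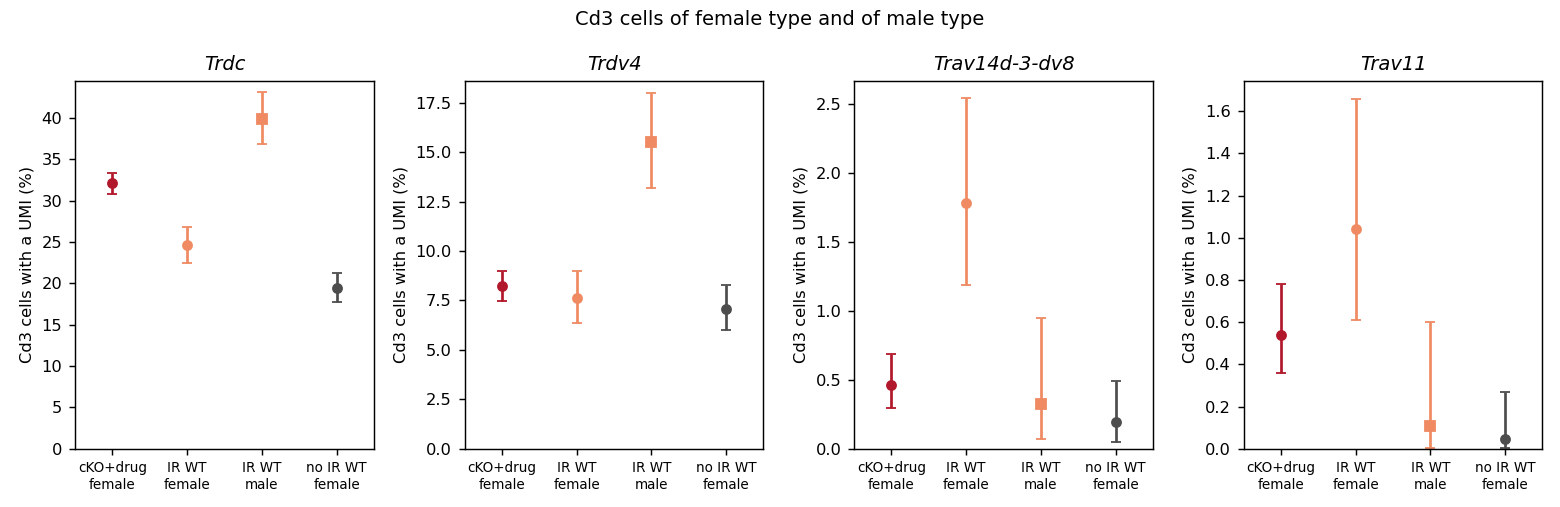
Share of Cd3 cells with a UMI (y axis, %) of Trdc, Trdv4, Trav14d-3-dv8 and Trav11, in female-type cells of the 3 libraries and male-type cells of the irradiated wild-type library; bars are exact binomial 95% intervals. Male-type cells were highest for Trdc (39.9%) and Trdv4 (15.5%), and female-type cells of the irradiated wild-type library were highest for Trav14d-3-dv8 (1.78%) and Trav11 (1.04%).

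The C genes differed widely between the 4 gates. In cells with at least 1 UMI of Cd4, the co-receptor of helper T cells, Trac was seen in 97.4%, 97.0% and 96.6% and Trdc in 6.02%, 4.48% and 2.26% (698, 558 and 265 cells). Cells with a UMI of Cd8b1, a chain of the co-receptor of cytotoxic T cells, had Trac in 95.6%, 92.9% and 93.2% and Trdc in 8.41%, 5.05% and 3.68% (1142, 436 and 517 cells). The Il17a or Cd163l1 gate, named for IL-17A and a scavenger receptor of IL-17 producing γδ cells, was the only one where Trdc was seen in most cells, at 68.2%, 69.3% and 62.5% (1965, 1013 and 530 cells). Trac was still seen in 60.2%, 61.5% and 59.1% of its cells. Cells with at least 2 UMIs of Xcl1, a chemokine of cytotoxic and innate-like lymphocytes, had Trac in 83.9%, 82.5% and 71.5% and Trdc in 18.1%, 21.6% and 20.2% (1196, 617 and 193 cells). In these Xcl1 cells NK markers had at least 2 summed UMIs in 28.7%, 26.3% and 35.8%, only 1 CD3 UMI was present in 10.5%, 13.3% and 21.2%, and no C gene of the α, δ or γ chains was seen in 8.36%, 7.13% and 18.7%. Their part in the Xcl1 shares was not tested. The gates overlapped: of the Xcl1 cells, 21.2%, 16.9% and 18.1% also had Cd8b1, and 24.8%, 23.9% and 43.3% of Cd3 cells were in no gate.

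Cells that should lack a T cell receptor were read as a guide to free RNA. They were chosen for having no CD3 UMI, so the level in Cd3 cells can differ. B-like cells (Cd79a and Ms4a1, no CD3 UMI; median 6025, 5027 and 4757 UMIs) had Trac in 8.37%, 9.49% and 8.74%, Trbc2 in 5.67%, 3.52% and 5.74%, and Trdc in 3.45%, 1.36% and 0.956%. The Trdc shares in the Cd4 gate (median 7475, 6968.5 and 6539 UMIs) were above these, but the intervals overlapped in each library, as in the knockout library with 4.37 to 8.05 in Cd4 cells and 1.90 to 5.72 in B-like cells. In the Cd8b1 gate (median 10412, 8742 and 8154 UMIs) they were above with separate intervals. Mesenchymal-like cells (Col1a2, no Ptprc and no CD3 UMI) had a median of 7807, 7911 and 7470 UMIs. They showed Trac in 2.67%, 4.13% and 3.73%, less than B-like cells, and Trdc in 2.67%, 0.952% and 0.821%. Beside these, the Trdc intervals of the Cd4 gate were separate in both irradiated libraries and overlapped in the non-irradiated one. NK-like cells (Ncr1, the activating receptor NKp46, and no CD3 UMI; median 4980, 4403 and 5017.5 UMIs) were unlike B-like cells in several receptor genes. They had Trbc1 in 61.8%, 60.5% and 65.4%, Trbc2 in 31.5%, 26.8% and 33.0%, and Trdc in 16.8%, 15.6% and 14.2%. Trbc1 made up 66.9%, 73.7% and 65.6% of their Trbc UMIs, against 38.6%, 38.8% and 41.4% in Cd3 cells. Trdv4 was also seen in 7.99%, 10.6% and 9.43% of NK-like cells, while Tcrg-C1 was seen in 0, 1 and 0 of them. B-like cells had Trdv4 in 0, 1 and 0 cells. Detection of Trdc or Trdv4 alone was therefore not taken to mark a γδ T cell.

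**Figure D3:**
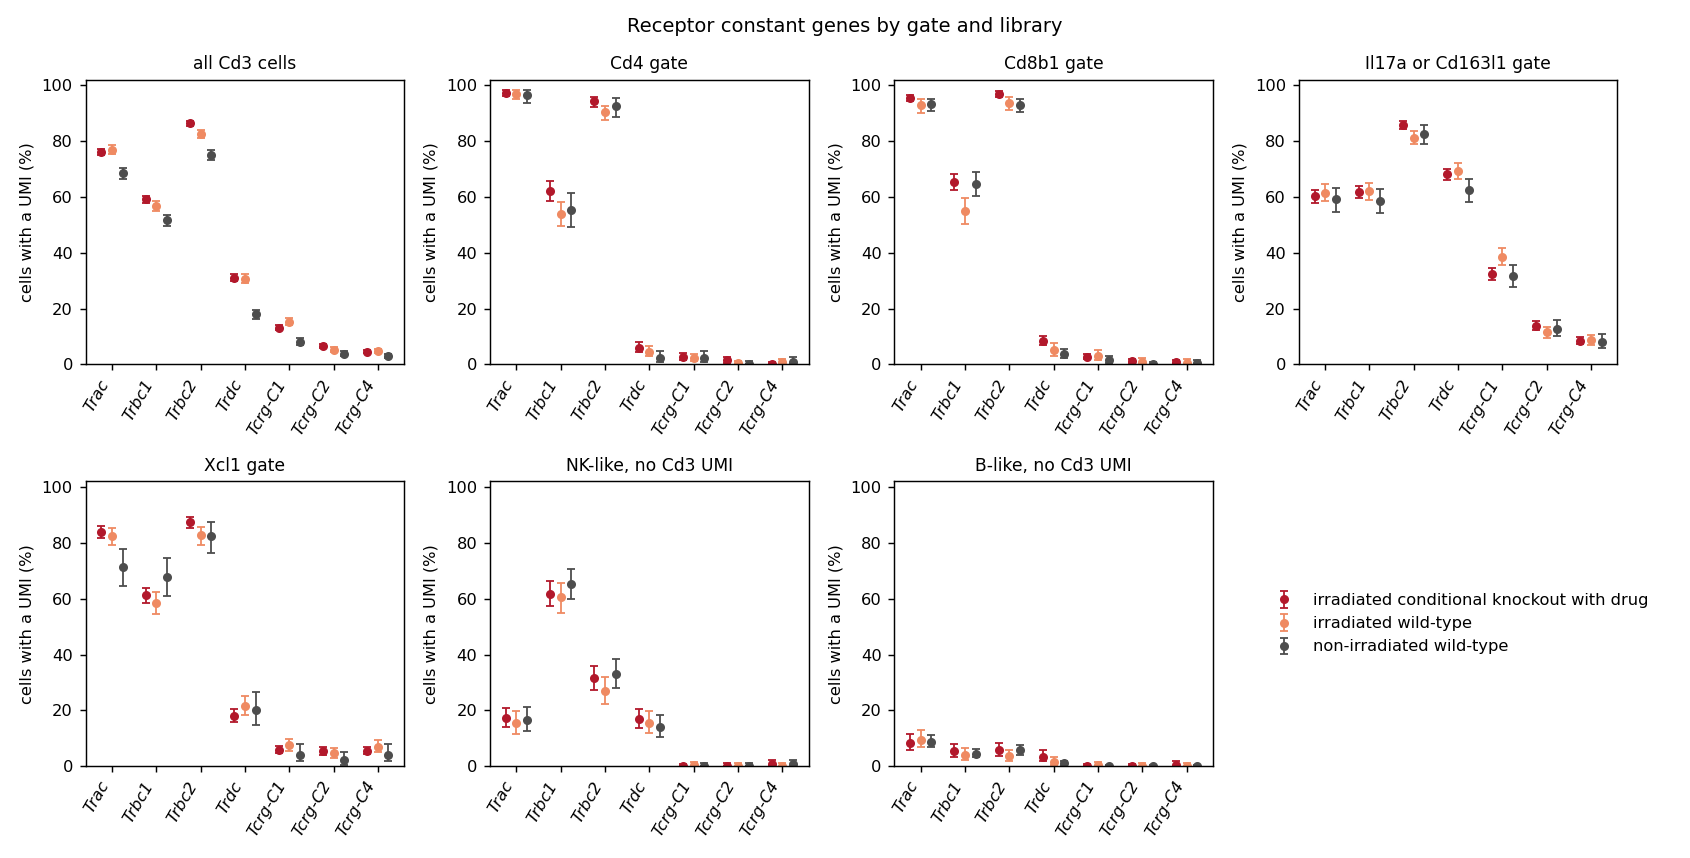
Share of cells with a UMI (y axis, %) of each constant gene in all Cd3 cells, the 4 gates and 2 classes without CD3 UMIs; points are libraries and bars exact binomial 95% intervals. Trdc reached 62.5% to 69.3% in the Il17a or Cd163l1 gate and at most 8.41% in the Cd4 and Cd8b1 gates, and Trbc1 stood well above Trbc2 in NK-like cells.

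A gene was called apart when its CPM, with 5 CPM added to each side, differed at least 2-fold, provided that 20 or more UMIs were counted in the higher library. In Cd3 cells no receptor gene was apart in any pair: 0 of 53 with enough UMIs in the knockout over the irradiated wild-type library, where 0.514% of all genes were apart, 0 of 51 in the knockout over the non-irradiated library (5.83%), and 0 of 28 in the irradiated over the non-irradiated wild-type library (7.67%). The median log2 ratio of these receptor genes was 0.02, 0.06 and 0.17, beside −0.02, −0.02 and 0.02 over all genes. The 5 CPM that were added hold back genes of low level, which is where the V genes lie. Within the gates 3 gene and gate combinations stood apart. Trdc in Cd8b1 cells had 43.3 CPM (560 UMIs) in the knockout library, against 14.6 CPM (70 UMIs) in the irradiated and 17.3 CPM (80 UMIs) in the non-irradiated wild-type library. These UMIs came from 96, 22 and 19 cells, and the share of cells (8.41%, 6.86 to 10.2, in the knockout and 5.05%, 3.19 to 7.54, in the irradiated wild-type library) overlapped in that pair. The summed markers of IL-17 producing γδ cells stood at 136.5, 52.8 and 114.0 CPM in the same cells, and their part in the Trdc level was not tested. Trdc was the only one of 13 receptor genes higher in either pair, where 0.629% and 0.431% of all genes were higher; 0 of 7 were apart between the wild-type libraries (8.45%). Trdc in Cd4 cells had 33.2 CPM in the irradiated and 12.8 CPM in the non-irradiated wild-type library (25 and 6 cells), and Trav14d-3-dv8, described below, was the other of 7 receptor genes that were higher in that pair (1.74% of all genes). In the knockout over the non-irradiated library 0 of 7 were apart in Cd4 cells (3.91%). In the Il17a or Cd163l1 gate 0 of 16, 0 of 16 and 0 of 12 were apart in the knockout over the irradiated wild-type, the knockout over the non-irradiated and the irradiated over the non-irradiated wild-type library, beside 0.705%, 6.57% and 8.21% of all genes. In the Xcl1 gate these were 0 of 15, 0 of 14 and 0 of 11, beside 0.78%, 3.59% and 4.02%.

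V use was described by calls, in which each cell gives 1 vote per locus to the V gene with most UMIs and ties are left out. A Trbv UMI was found in 9.92%, 7.78% and 9.30% of Cd3 cells of the knockout, irradiated wild-type and non-irradiated libraries, which gave 535, 222 and 217 calls. A Trav UMI was found in 15.1%, 16.6% and 13.1% (804, 470 and 303 calls), a Trdv UMI in 11.8%, 15.4% and 9.09% (657, 455 and 219 calls), and a Tcrg-V UMI in 4.41%, 4.09% and 2.34% (246, 121 and 56 calls). Both a Trav and a Trbv gene were seen in 2.06%, 2.39% and 1.88% of Cd3 cells. Of 442 comparisons of a V gene in a gate, 5 had shares at least 2-fold apart with intervals that did not overlap: Trav14d-3-dv8 in Cd3 and in Cd4 cells, Trav11 and Trav5-1 in Cd3 cells, and Tcrg-V1 in the Il17a or Cd163l1 gate. Of 99 comparisons of a V family, 1 did, Trav11 again.

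The most called β V genes took similar shares in the 3 libraries. Trbv12-2 took 36.3% (32.2 to 40.5) of Trbv calls in the knockout, 40.1% (33.6 to 46.9) in the irradiated wild-type and 41.0% (34.4 to 47.9) in the non-irradiated library. It was followed by Trbv19 with 6.17%, 8.56% and 7.37% and Trbv2 with 5.61%, 5.86% and 4.61%, and all these intervals overlapped between libraries. The effective number of Trbv genes, the number of equally used genes that would give the same evenness, was 6.41, 5.47 and 5.29. In Cd4 cells Trbv12-2 took 21 of 92, 21 of 64 and 15 of 37 calls, and in Cd8b1 cells 79 of 207, 26 of 74 and 35 of 88. Its 415 carriers held 504 UMIs, had Trac in 92.5% and Trdc in 11.1%, and had Cd8b1 more often (39.0%) than Cd4 (15.4%). Trbv13-2, a β V gene that conventional T cells use widely and that many invariant NKT receptors carry, took 3.18% (1.86 to 5.04), 5.86% (3.15 to 9.81) and 4.15% (1.91 to 7.73) of calls. Trbv3 took 6.36% (4.44 to 8.77), 3.60% (1.57 to 6.98) and 1.84% (0.504 to 4.65), with intervals that overlapped. In female-type cells Trbv3 was seen in 0.636% (0.438 to 0.892), 0.429% (0.173 to 0.882) and 0.144% (0.0296 to 0.419), and there the intervals of the knockout and non-irradiated libraries were separate. Because most V genes were seen through 1 UMI per cell (78.3% to 83.8% of the cells with a Trbv UMI), the share of Trbv12-2 among β chains was not measured apart from its capture.

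α V use was spread over many genes. The effective number of Trav genes was 42.0, 36.1 and 42.9 in the knockout, irradiated wild-type and non-irradiated libraries, and the most called were Trav16n with 5.72%, 6.38% and 4.29%, Trav16 with 5.47%, 4.26% and 5.61%, and Trav3-3 with 3.61%, 5.32% and 4.62%. By family Trav6 led with 14.3%, 11.1% and 13.9%, then Trav16 with 13.1%, 11.3% and 11.2% and Trav13 with 12.5%, 9.21% and 7.92%. Trav5-1 was the only V gene called more often in the non-irradiated library by the rule above, with 7 calls (0.871%, 0.351 to 1.79) in the knockout library against 11 calls (3.63%, 1.83 to 6.40) without irradiation; the irradiated wild-type library had 5 calls (1.06%, 0.346 to 2.47). All 24 of its carriers had Trac.

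**Figure D4:**
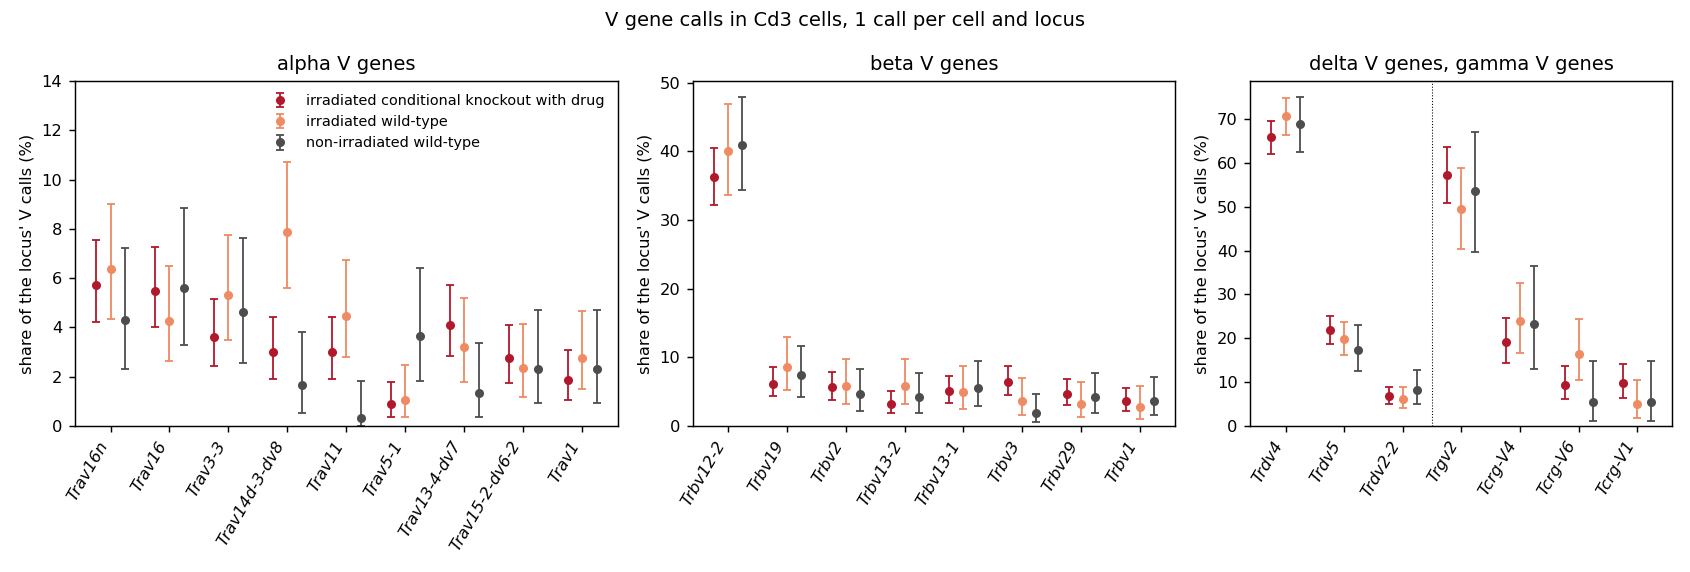
Share of a locus' V calls (y axis, %) in Cd3 cells for α, β, δ and γ V genes; points are libraries and bars exact binomial 95% intervals. Trbv12-2, Trdv4 and Trgv2 led their loci in all 3 libraries, while Trav14d-3-dv8 stood out in the irradiated wild-type library (7.87%) and Trav11 was near 0 in the non-irradiated library (0.33%).

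Trav14d-3-dv8 was called most often in the irradiated wild-type library, with 19 of its 37 calls there in Cd4 cells. It took 24 calls (2.99%, 1.92 to 4.41) in the knockout library, 37 calls (7.87%, 5.60 to 10.7) in the irradiated wild-type library and 5 calls (1.65%, 0.538 to 3.81) in the non-irradiated library. In Cd4 cells these were 2 of 130 (1.54%), 19 of 125 (15.2%) and 1 of 48 (2.08%) calls. The UMIs in Cd4 cells were 5, 46 and 1, which is 0.767 (0.249 to 1.79), 8.77 (6.42 to 11.7) and 0.491 (0.0124 to 2.74) CPM, so it was lower in the knockout than in the irradiated wild-type library, where 0.524% of all genes were lower, and higher in the irradiated than in the non-irradiated wild-type library. Over all Cd3 cells 28, 42 and 5 cells carried it with 46, 92 and 8 UMIs, at most 7 in a cell. Within the irradiated wild-type library it was seen in 29 of 1631 female-type cells (1.78%, 1.19 to 2.54) and 3 of 924 male-type cells (0.325%, 0.067 to 0.946). Cd4 was seen in 5 of 28, 21 of 42 and 1 of 5 carriers, beside 16.8%, 24.6% and 15.6% of the other Trav carriers.

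Every one of the 75 carriers of Trav14d-3-dv8 had Trac, on average 10.5 UMIs, and 2.67% had Trdc, although the symbol marks it as a gene that δ chains can use as well. A β V gene was seen in 7 of them: Trbv12-2 in 2 cells and Trbv1, Trbv13-2, Trbv15, Trbv16, Trbv19 and Trbv20 in 1 each. In the irradiated wild-type library only 4 of 42 carriers had a Trbv UMI, and in the knockout library 2 of 28 did, with 3 kinds of Trbv. These are too few to tell whether the carriers of a library shared a β V gene. Only 35.0% of the gene's 31-base windows are unique, and its near copies shown above may share its reads. In Cd4 cells of the knockout, irradiated wild-type and non-irradiated libraries the Trav14 family took 12.2% (7.15 to 19.1), 22.2% (15.3 to 30.5) and 6.25% (1.31 to 17.2) of calls. These intervals overlapped. By gene, Trav14n-3 took 7 of 130, 1 of 125 and 0 of 48 calls there, Trav14-2 took 5, 2 and 0, and Trav14-3 took 0, 4 and 2. The part of shared reads in the Trav14d-3-dv8 difference was not tested.

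The V gene of the invariant NKT α chain was found almost entirely in the irradiated libraries. Trav11 was carried by 29 Cd3 cells (0.507%, 0.340 to 0.728) in the knockout and 24 (0.798%, 0.512 to 1.19) in the irradiated wild-type library, against 1 (0.041%, 0.00104 to 0.228) in the non-irradiated library. In the Xcl1 gate these were 24 of 1196, 18 of 617 and 0 of 193 cells; a count of 0 there allows up to 1.55%, and the interval up to 1.89% overlaps that of the knockout library (1.29 to 2.97) and that of the irradiated wild-type library (1.74 to 4.57). Among Trav calls of all Cd3 cells it took 2.99% (1.92 to 4.41), 4.47% (2.79 to 6.75) and 0.33% (0.00836 to 1.83). Traj18 was carried by 11, 9 and 0 cells, and it was the only J segment with more than 2 UMIs in any library.

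Trav11 carriers were mostly Xcl1 and Zbtb16 cells. Of all 54, 98.1% had Trac, 90.7% had Xcl1 and 64.8% had Zbtb16, the transcription factor PLZF of innate-like T cells, while 3.70% had Cd4 and 5.56% had Cd8b1. Over all Cd3 cells Zbtb16 was seen in 14%, 21.8% and 11.1% in the knockout, irradiated wild-type and non-irradiated libraries. A β V gene was seen in 8 Trav11 carriers and it was Trbv12-2 in each of them, while Trbv13-2, Trbv29 and Trbv1, the β V genes known from this receptor, were seen in none. Over Cd3 cells Trbv13-2 was seen in 27, 18 and 14 cells, Trbv29 in 29, 9 and 10, and Trbv1 in 20, 6 and 8. Traj18 was found in 2 of the Trav11 carriers, and 70.0% of its 20 carriers had Xcl1. A Trav UMI was seen in 5 of these 20 cells: Trav11 in 2, and Trav6n-6, Trav6-3 and Trav13-1 in 1 each. None of the 31-base windows of Trav11 is unique, since the copy Trav11d is nearly identical to it, and Trav11d had no UMI. Female-type cells of the irradiated wild-type library held 17 carriers (1.04%, 0.608 to 1.66), and its male-type cells held 1 (0.108%, 0.00274 to 0.602).

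Trav1, the V gene of the MAIT α chain, showed no difference beyond counting error. Trav1 was carried by 16 cells (0.280%, 0.160 to 0.454) in the knockout, 14 (0.466%, 0.255 to 0.780) in the irradiated wild-type and 8 (0.328%, 0.142 to 0.645) in the non-irradiated library, with overlapping intervals. Its 38 carriers had Trac in 94.7%, Zbtb16 in 52.6% and Il17a in 47.4%. Traj33 had no UMI in any library, which allows up to 0.0525%, 0.0998% and 0.123% of Cd3 cells. The MAIT α chain itself was therefore not observed, and the Trav1 carriers were too few to exclude a difference.

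Trdv4 was the leading δ V gene in Cd3 cells of all 3 libraries and was highest in the irradiated wild-type library. It was seen in 7.76% (7.08 to 8.49) of Cd3 cells in the knockout, 11.0% (9.88 to 12.1) in the irradiated wild-type and 6.35% (5.41 to 7.39) in the non-irradiated library, at 27.3 (25.8 to 28.9), 41.0 (38.5 to 43.7) and 20.5 (18.5 to 22.7) CPM. In female-type cells alone the shares were 8.21% (7.48 to 8.99), 7.60% (6.36 to 9) and 7.09% (6.02 to 8.27), with overlapping intervals, and the male-type cells had 15.5% (13.2 to 18.0). Among Trdv calls it took 65.9%, 70.8% and 68.9%, ahead of Trdv5 with 21.8%, 19.8% and 17.4% and Trdv2-2 with 6.70%, 6.15% and 8.22%, and each of these shares overlapped between libraries in its interval.

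The 929 carriers of Trdv4 had the markers of IL-17 producing γδ cells. Trdc was seen in 88.1% of them, Tcrg-C1 in 58.7%, Il17a in 80.2%, Cd163l1 in 74.6% and the kinase gene Blk, which marks γδ cells that make IL-17, in 67.2%. They held on average 19.3 Trdc UMIs and 1.43 Trac UMIs. The 299 carriers of Trdv5 had Trdc (89.3%) and Il17a (80.3%) as often, but Cd163l1 in 16.1%, and on average 3.56 Trdc UMIs. Trdv5 lies on the − strand and its end overlaps the 3′ end of Trdc on the + strand (chr14:54148662-54149294 and chr14:54142851-54148868), and whether the counting used strand is not stated in the labels.

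Splitting the Il17a or Cd163l1 gate showed where the δ genes were. In cells with both Il17a and Cd163l1 (560, 338 and 152 cells) Trdc was seen in 92.3%, 97.0% and 100% and Trdv4 in 52.7% (48.4 to 56.9), 65.7% (60.4 to 70.7) and 71.1% (63.2 to 78.1). In cells with Il17a and no Cd163l1 (1312, 613 and 355 cells) Trdc was seen in 58.4% (55.7 to 61.1), 54.2% (50.1 to 58.2) and 45.4% (40.1 to 50.7), Trdv4 in 5.56%, 5.55% and 3.66%, and Trac in 63.3%, 67.0% and 65.9%. The Trdv4 share among cells with both genes was thus lowest in the knockout library, with an interval apart from the other 2, and the Trdc share among cells with Il17a alone was higher in the knockout than in the non-irradiated library, with separate intervals. Over the whole gate Trdv4 was seen in 20.2%, 28.2% and 24.5% of cells, and in female-type cells in 20.8%, 23.3% and 24.8%.

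γ V genes were seen in few cells. Of Tcrg-V calls, Trgv2 took 57.3% (50.9 to 63.6), 49.6% (40.4 to 58.8) and 53.6% (39.7 to 67.0) in the knockout, irradiated wild-type and non-irradiated libraries, Tcrg-V4 took 19.1%, 24.0% and 23.2%, and Tcrg-V6 took 9.35% (6.02 to 13.7), 16.5% (10.4 to 24.4) and 5.36% (1.12 to 14.9). In the Il17a or Cd163l1 gate Tcrg-V6 had 23 of 179, 16 of 89 and 3 of 40 calls, with overlapping intervals. Tcrg-V1 differed there: it had 14 of 179 calls (7.82%, 4.34 to 12.8) in the knockout library, against 0 of 89 (up to 4.06%) in the irradiated and 1 of 40 (2.5%, 0.0633 to 13.2) in the non-irradiated wild-type library. Over all Cd3 cells Tcrg-V1 took 9.76% (6.35 to 14.2), 4.96% (1.84 to 10.5) and 5.36% (1.12 to 14.9) of calls, with overlapping intervals. Tcrg-V5, the V gene of the γδ cells of the skin, was seen in 3, 5 and 3 Cd3 cells, at or near what a count of 0 allows.

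Most carriers of Tcrg-V6 also had a Trdv4 UMI. A Trdv UMI was found in 39 of the 50 carriers of Tcrg-V6, and all 39 had Trdv4, beside Trdv1 in 2 and Trdv2-2 in 1. These 50 cells had Trdc in 96.0%, Tcrg-C1 in 76.0%, Il17a in 86.0% and Cd163l1 in 80.0%. The 95 carriers of Tcrg-V4 had a Trdv UMI in 29 cells, with Trdv5 in 14 and Trdv4 in 13, and Cd163l1 in 23.2%. Trdv4 was also seen in 2 of 3, 3 of 5 and 3 of 3 carriers of Tcrg-V5 in the knockout, irradiated wild-type and non-irradiated libraries. Of the 236 carriers of Trgv2, 63 had a Trdv UMI, with Trdv4 in 46 and Trdv5 in 15. Tcrg-C2, its usual constant gene, was seen in 39.0% of them, beside Tcrg-C1 in 47.9% and Tcrg-C4 in 23.7%. The 39 carriers of Tcrg-V1 had Tcrg-C4 in 25.6% and Tcrg-C1 in 33.3%. Tcrg-C1 and Tcrg-C2 share many 31-base windows (49.0% and 54.1% are unique), while all windows of Tcrg-C4 are unique.

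**Figure D5:**
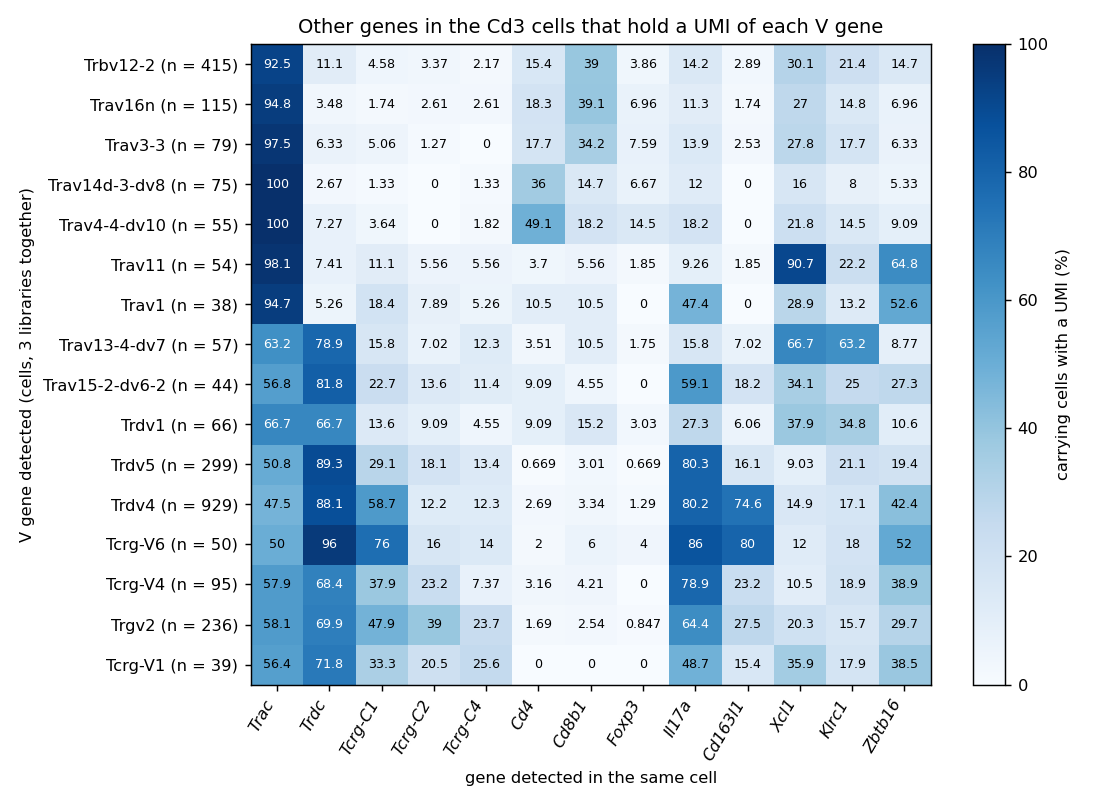
Share of the Cd3 cells carrying each V gene (rows, 3 libraries together, n in brackets) that also had a UMI of the gene in the column; darker is higher. Trav11 carriers stand out by Xcl1 (90.7%) and Zbtb16 (64.8%), Trdv4 and Tcrg-V6 carriers by Trdc, Il17a and Cd163l1, and Trav13-4-dv7 carriers by Trdc (78.9%) with Klrc1 (63.2%).

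Some V genes can be joined to either the α or the δ constant gene, and the symbol marks them with dv. Carriers of the 9 such genes with UMIs had Trdc in 31.9% and on average 2.44 Trdc UMIs (385 carriers), against 8.84% and 0.545 for the 70 other Trav genes with UMIs (1357 carriers). The 9 genes were unlike each other. Trdc was seen in 81.8% of the 44 carriers of Trav15-2-dv6-2, 78.9% of the 57 carriers of Trav13-4-dv7 and 65.6% of the 32 carriers of Trav15-1-dv6-1, but in 2.67% of those of Trav14d-3-dv8, 7.27% of Trav4-4-dv10 and 8.75% of Trav6-7-dv9. The first 2 marked different cells: 59.1% of Trav15-2-dv6-2 carriers had Il17a, while 66.7% of Trav13-4-dv7 carriers had Xcl1 and 63.2% had Klrc1, which encodes the NK receptor chain NKG2A. Trav13-4-dv7 was carried by 37 (0.647%, 0.456 to 0.891), 16 (0.532%, 0.304 to 0.863) and 4 (0.164%, 0.0447 to 0.419) cells of the knockout, irradiated wild-type and non-irradiated libraries, and in the Xcl1 gate it took 19 of 214, 8 of 133 and 2 of 20 Trav calls. Only 8.70% of its windows are unique.

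Genes that work with the receptor were read from 2 lists in Cd3 cells. Of 24 genes of the receptor complex and its signalling, 24 had enough UMIs. Cd3d, Cd3e and Cd3g, whose UMIs chose the cells, are on this list and enter its counts and medians. In the knockout over the irradiated wild-type library 0 were higher and 0 lower (median log2 ratio −0.18), and in the knockout over the non-irradiated library likewise 0 and 0 (0.28). In the irradiated over the non-irradiated wild-type library 1 was higher and 0 lower (0.52), where 0.656% of all genes were higher. That gene was Cd6, a surface receptor that tunes T cell activation, with 89.5 (85.7 to 93.4) against 41.3 (38.4 to 44.4) CPM, and it had 71.3 CPM in the knockout library. Cd3 cells without a C gene of the α, δ or γ chains were 6.78% in the irradiated and 20.6% in the non-irradiated wild-type library. Those with only 1 CD3 UMI were 11.1% and 23.8%. The part of such cells in the Cd6 level and in the median ratio was not tested. Nr4a3, a transcription factor gene switched on by receptor signalling, had 126.0, 224.5 and 115.4 CPM in the knockout, irradiated wild-type and non-irradiated libraries, which is under the 2-fold limit. The CD3 gene Cd3g stood at 291.6, 327.5 and 209.0 CPM, and since CD3 UMIs chose the cells, this is a description.

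Of 14 genes of rearrangement and lineage, 11 had enough UMIs. Sox4, a transcription factor gene that many cell types express, was lower in the knockout over the non-irradiated library (12.7 against 33.5 CPM) and in the irradiated over the non-irradiated wild-type library (10.2 against 33.5 CPM), where 5.58% and 7.01% of all genes were lower. In the same Cd3 cells the summed endothelial markers stood at 68.6, 46.0 and 382.3 CPM, the mesenchymal ones at 120.7, 92.8 and 518.0 CPM and the epithelial ones at 1644, 1296 and 4795 CPM in the knockout, irradiated wild-type and non-irradiated libraries, and their part in the Sox4 level was not tested. None was apart in the knockout over the irradiated wild-type library. The median log2 ratios of the list were 0.11, 0.32 and −0.27 in these 3 pairs. Zbtb16 had 25.8 (24.4 to 27.3), 50.8 (47.9 to 53.7) and 23.6 (21.4 to 25.9) CPM in the knockout, irradiated wild-type and non-irradiated libraries, under the 2-fold limit once 5 CPM were added. The recombinase gene Rag1 had 0, 0 and 1 UMI.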

How the data were processed

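Lung cells of 3 libraries, 1 per group, were measured. The authors deposited UMI counts per gene and barcode, not normalized; per the file headers software of version 3.1.0 wrote them, without its name, and the build is mm10 per the submitters' processing notes. The aligner, the strand setting and the treatment of reads that match several genes are stated in no label or header. Every barcode had at least 500 UMIs, so shallower cells were not analysed here. From these counts UMIs were summed per library and cell set and given as CPM, and shares and V calls were taken per cell with exact intervals (scipy 1.17.1 and pandas 2.3.3, with numpy 2.4.6 in python 3.11.15). No test across libraries is possible.

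Members, gates and gene lists were chosen with earlier results of these data known. Named are all C genes, the 3 most called V genes per locus and gate, V genes whose shares differ at least 2-fold with separate intervals, genes apart in a pair, and the receptor and pathway lists; Trbv3, Trav13-4-dv7, the other dv genes, the NK-like values and the split of the Il17a gate were chosen after their values were seen. Female-type cells had Xist and no Y-linked UMI. Doublets were kept; as an alternative Scrublet in scanpy 1.11.5 removed 1020, 401 and 1918 barcodes of the knockout, irradiated wild-type and non-irradiated libraries. Positions and windows come from GENCODE vM21 on GRCm38. The scoring was tested on simulated data. For the 2-fold rule the changed genes lay above the level of most V genes, so its reach among V genes was not tested.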

Additional observations from a re-analysis of the deposited data

How the results depend on the processing

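No paired analysis was possible because each group has 1 library. Values are for the knockout, irradiated wild-type and non-irradiated libraries. Thinning to 1000 UMIs gave Trdc in 15.7%, 16.9% and 9.88% of Cd3 cells, a Tcrg-V6 share of 23.5% in the knockout and 0% in the non-irradiated library, a Trbv13-2 share of 1.64% in the knockout library, an effective number of Trbv genes of 7.18 in the non-irradiated library, and Tcrg-C4 as the 1 gene apart (higher) in the irradiated over the non-irradiated wild-type and in the knockout over the non-irradiated library. Without cells that carried markers of other types, Trdc was 32.5% in the knockout and 20.4% in the non-irradiated library, whose Tcrg-V6 share was 0%. This left 3200 Cd3 cells in the knockout and 583 in the non-irradiated library. With at least 2 CD3 UMIs Trdc was 21.4% in the non-irradiated library. The irradiated wild-type library had Trdc in 24.6% of female-type cells and, by a split added after the data were seen, in 39.9% of male-type cells. With at least 2 UMIs for a call, Tcrg-V6 took 5.88%, 0% and 0%, Trbv13-2 took 0% in both wild-type libraries, and the effective number was 4.23 in the knockout and 2.24 in the non-irradiated library. Few cells were left for these calls. Of the 183, 91 and 41 cells with a Tcrg-V UMI in the Il17a or Cd163l1 gate, 88.5%, 90.1% and 90.2% had only 1. Of the 567, 234 and 227 Cd3 cells with a Trbv UMI, 78.3%, 83.8% and 82.4% had only 1. With 1 CPM added in place of 5, 2 genes were apart in the irradiated over the non-irradiated wild-type library (Trav14d-3-dv8 and Trav11, higher) and 1 in the knockout over the irradiated wild-type library (Trav14d-3-dv8, lower). The causes of these shifts were not tested. For these results the 24 values that moved are given above, and 112 did not move. Of the values of single genes 26 moved and 69 did not. A share or effective number was taken as not moved when it stayed within the counting interval of the main value. A count of genes apart was taken so when it stayed at 0. With 20 CPM added, or with at least 50 UMIs asked for, a count of 0 could only stay at 0. Trdv4, higher in the irradiated wild-type than in the knockout library over all Cd3 cells (7.76% in the knockout and 11.0%), stood at 8.21% and 7.60% in female-type cells. A V UMI was found in 36.2%, 38.6% and 30.3% of Cd3 cells.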
